A study of Mus musculus with 14 samples.

Results

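Autophagy and lysosome biogenesis genes were followed in the mouse hypothalamus after a fast and after loss of a mitochondrial fusion protein in one class of neurons. A list of 38 genes was taken by gene symbol, and 34 of them were measured among the 17097 genes tested, each through the probe set that names only that gene and has the highest mean over all 14 arrays. The other 4 are not analysed here: both probe sets of Atg4d and the single one of Sqstm1 also name another gene, and no probe set used here names only Map1lc3b or only Optn. The 4 groups were knockout mice fasted for 16 h (n = 3), knockout mice fed at random (n = 4), control mice fasted for 16 h (n = 3) and control mice fed at random (n = 4). Knockout mice, labelled POMCMfn1KO, lacked Mfn1 (mitofusin 1, which fuses mitochondrial outer membranes) in neurons that make pro-opiomelanocortin, a small population of the hypothalamus that restrains feeding. All mice were 12 weeks old and shared a mixed background of C57Bl/6J, FVB/N and 129, and total RNA of whole hypothalamus was labelled from 150 ng. The labels name the controls by that word alone and do not give the driver of the deletion. They also do not say that the replicates came from separate mice, so the p-values reflect only the spread between samples.

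Autophagy encloses cytoplasm in a double membrane, the autophagosome, and delivers it to the lysosome for breakdown. The ULK1 kinase complex starts the process when nutrients run short, a class III phosphatidylinositol 3-kinase complex marks the membrane, ubiquitin-like conjugation attaches ATG8 proteins to it, and cargo receptors bind ATG8 proteins to choose what is enclosed. TFEB and TFE3 are related transcription factors that switch on lysosomal and autophagy genes. Much of this machinery is controlled through phosphorylation and protein turnover, which RNA arrays do not measure, and autophagy in hypothalamic neurons is known to take part in the control of feeding.

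The values are log2 expression values, so a difference of 1 is a doubling, and the number of arrays limits their precision. Array medians lay between 4.98 and 5.05. Mfn1 lay between 9.03 and 9.12 in the 7 knockout arrays and between 8.99 and 9.10 in the 7 control arrays, and these ranges overlapped. The share of the tissue's Mfn1 RNA that comes from the targeted neurons was not tested. Hypothalamic markers ranged from Nkx2-1 and Nr5a1, dim at means of 4.17 and 4.54, to Pmch at 12.42. Their mean over the 10 measured was 7.69 to 8.49, lowest in control fed replicate 1. That array and knockout fed replicate 4 had the highest mean of 3 cortex and hippocampus markers, at 5.74 and 5.71. The other arrays had 5.12 to 5.52. By group, this mean was 5.12 to 5.24 in knockout fasted arrays and 5.44 to 5.71 in knockout fed arrays. It was 5.31 to 5.35 in control fasted arrays and 5.34 to 5.74 in control fed arrays, so it ran lower in fasted arrays. Of the 3 markers, Neurod6 and Emx1 were dim, at means of 4.18 and 4.34, and Prox1 was brighter. Fasted minus fed, averaged over genotypes, Prox1 differed by -0.31 (limma, adjusted p 0.0332), Neurod6 by -0.24 (adjusted p 0.271) and Emx1 by -0.23 (adjusted p 0.123). Probe sets without a target had a median of 3.64. Whether the 2 arrays held other brain tissue was not tested, nor was the part of such tissue in the fasting differences. Results are also given without both arrays, an alternative chosen after seeing the data. The sample numbers in the titles form a low and a high series: the 6 fasted arrays and knockout fed replicate 1 have low numbers and the other 7 fed arrays have high ones, so fasting and number series can hardly be told apart. The labels do not say what the numbers stand for.

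Fasting changed 1 of the 34 genes when both genotypes were averaged. Atg10, which encodes an E2-like enzyme that joins ATG12 to ATG5, rose, and 0 members fell (limma, Benjamini-Hochberg adjusted p under 0.05 over all genes). That is 2.94% of the members, against 10.0% of all genes tested, of which 5.14% rose and 4.90% fell. At an unadjusted p under 0.05 the count was 7 of 34, or 20.6%, against 26.0% of all genes. The median log2 difference of the members, fasted minus fed, was 0.04, with 24 positive and 10 negative, against 0.00 for all genes, and single members lay between -0.20 and 0.26. In bulk tissue, fewer cells of a type and less RNA per cell cannot be told apart. Without the pair of arrays with high cortex and hippocampus markers the count was 2, Atg10 and Lamp2, and in a fit that also held the number series it was 0, against 0.0877% of all genes in that fit. There, 4 of 34 (11.8%) had an unadjusted p under 0.05, against 10.8% of all genes, and the differences of Ulk1, Ulk2, Rb1cc1, Ambra1, Wipi1, Wipi2, Bnip3l and Tfeb, between -0.10 and 0.04 without it, had the opposite sign.

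In the fit without the number series, the intervals show how large a fasting difference the probe set used for each gene leaves room for. The 95% interval of the averaged fasting difference lay wholly within a fold of 1.2 in either direction, which is 0.26 on the log2 scale, for 29 of 34 members (85.3%), against 65.9% of all genes; this bound was chosen after the values were seen. The median width of the interval to each side was 0.11 for the members and 0.13 for all genes. Members were bright, with a mean of 8.86 to 8.93 per array, against array medians of 4.98 to 5.05 over all probe sets. This and the later comparisons of intervals with all genes do not allow for brightness. Rb1cc1, close to the median of 3.64 of probe sets without a target, is counted among the 29. The exceptions were Atg101, Uvrag, Atg4c, Atg10 and Lamp2, whose intervals reached past it. This bound does not carry over to the fit that also held the number series. There the SE of Becn1 was 0.07, against 0.03 without the series. In that fit Atg13 stood at 0.39 ± 0.10 and Tfeb at -0.25 ± 0.11, and intervals within the bound were not counted. In no member did all 6 fasted arrays lie apart from all 8 fed arrays, as 3.40% of all genes did. The mean over the 34 genes was 8.90 to 8.93 in fasted arrays and 8.86 to 8.91 in fed arrays, and these ranges overlapped.

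**Figure D1:**
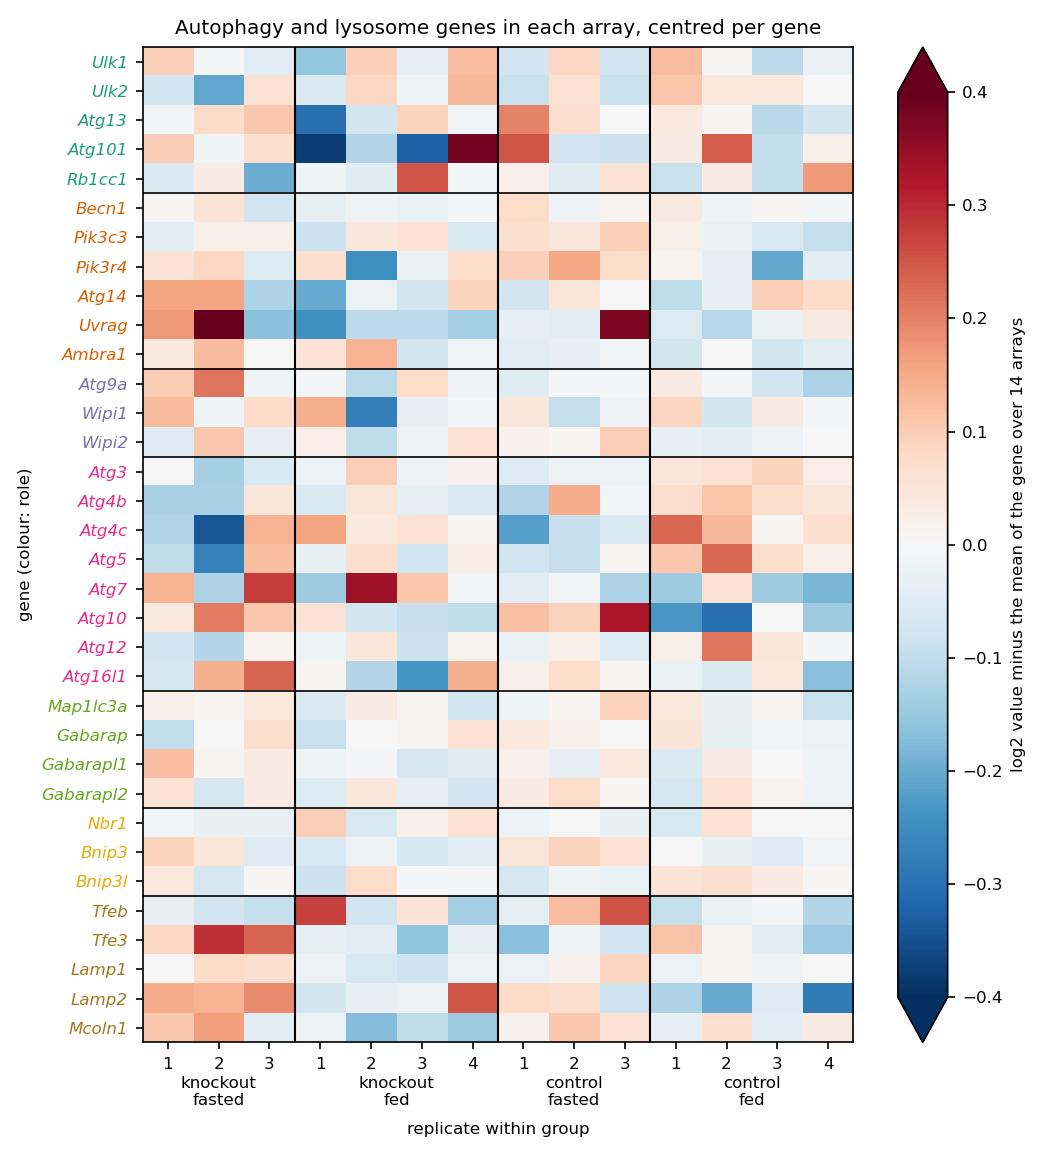
Heat map of the 34 genes (rows, by role from the initiation complex at the top to lysosomal proteins at the bottom, with the colour of the name marking the role) in the 14 arrays (columns, by group and replicate). Colour is the log2 value minus the gene's mean over all arrays, capped at 0.4 in either direction; most cells are pale, and the fasted columns of Atg10 are red in both genotypes while most of its fed columns are blue.

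Atg10 had log2 values of 7.94, 8.11 and 8.01 in knockout fasted arrays, 7.96, 7.83, 7.81 and 7.80 in knockout fed arrays, 8.02, 7.99 and 8.23 in control fasted arrays, and 7.67, 7.60, 7.90 and 7.76 in control fed arrays. All control fasted arrays stood above all control fed ones, while in knockout mice fed replicate 1 lay above the lowest fasted array. The averaged fasting difference was 0.26 ± 0.06 (SE), a fold of 1.2, with an adjusted p of 0.0142 in limma. That fed array is the one with a low sample number, and in a fit that also held the number series the difference of Atg10 was 0.13 ± 0.12 with an adjusted p of 0.764. Without the 2 arrays with high cortex and hippocampus markers it was 0.24 (adjusted p 0.0422). The stretch of 120 bases before the start of Atg10 is shown because it is the gene that passed the test; it is read from the RefSeq promoter table for GRCm38.p6, minus strand, chr13:91223988-91224107, and holds no E-box (CACGTG), the core of the site bound by TFEB and TFE3.
Atg10: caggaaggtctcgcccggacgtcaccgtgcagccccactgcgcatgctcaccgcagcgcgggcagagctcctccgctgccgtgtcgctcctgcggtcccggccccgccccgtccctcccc

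The other conjugation enzymes did not pass the test. Of the 8 measured in this role, 3 had a positive averaged fasting difference and 5 a negative one, with a median of -0.06. Atg4c, a protease that trims ATG8 proteins, had log2 values of 8.33, 8.11 and 8.59 in knockout fasted arrays, 8.61, 8.49, 8.51 and 8.46 in knockout fed arrays, 8.23, 8.36 and 8.39 in control fasted arrays, and 8.68, 8.58, 8.46 and 8.52 in control fed arrays. Control fasted arrays lay below all control fed ones, and knockout fasted replicate 3 lay among the fed arrays. The difference was -0.20 ± 0.07 (adjusted p 0.0706), and without knockout fasted replicate 3 it was -0.27 with an adjusted p of 0.00977. That was the largest of the differences found by leaving out each array in turn, which ran from -0.27 to -0.15. Atg4c passed in 3 of 21 alternatives.

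Atg3, the E2-like enzyme for ATG8 proteins, differed by -0.09 ± 0.03 between fasted and fed arrays (adjusted p 0.140). Its control fasted values, 10.36 to 10.39, lay below its control fed values, 10.44 to 10.50. Atg5, which ATG12 is joined to, differed by -0.12 ± 0.06 (adjusted p 0.210) and Atg12 by -0.07 ± 0.04 (adjusted p 0.349). Atg4b, another ATG8 protease, had a difference of -0.06. Atg7, the E1-like enzyme that activates both conjugation routes, had 0.03, and Atg16l1, which brings the conjugate to the membrane, had 0.12 (adjusted p 0.259).

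**Figure D2:**
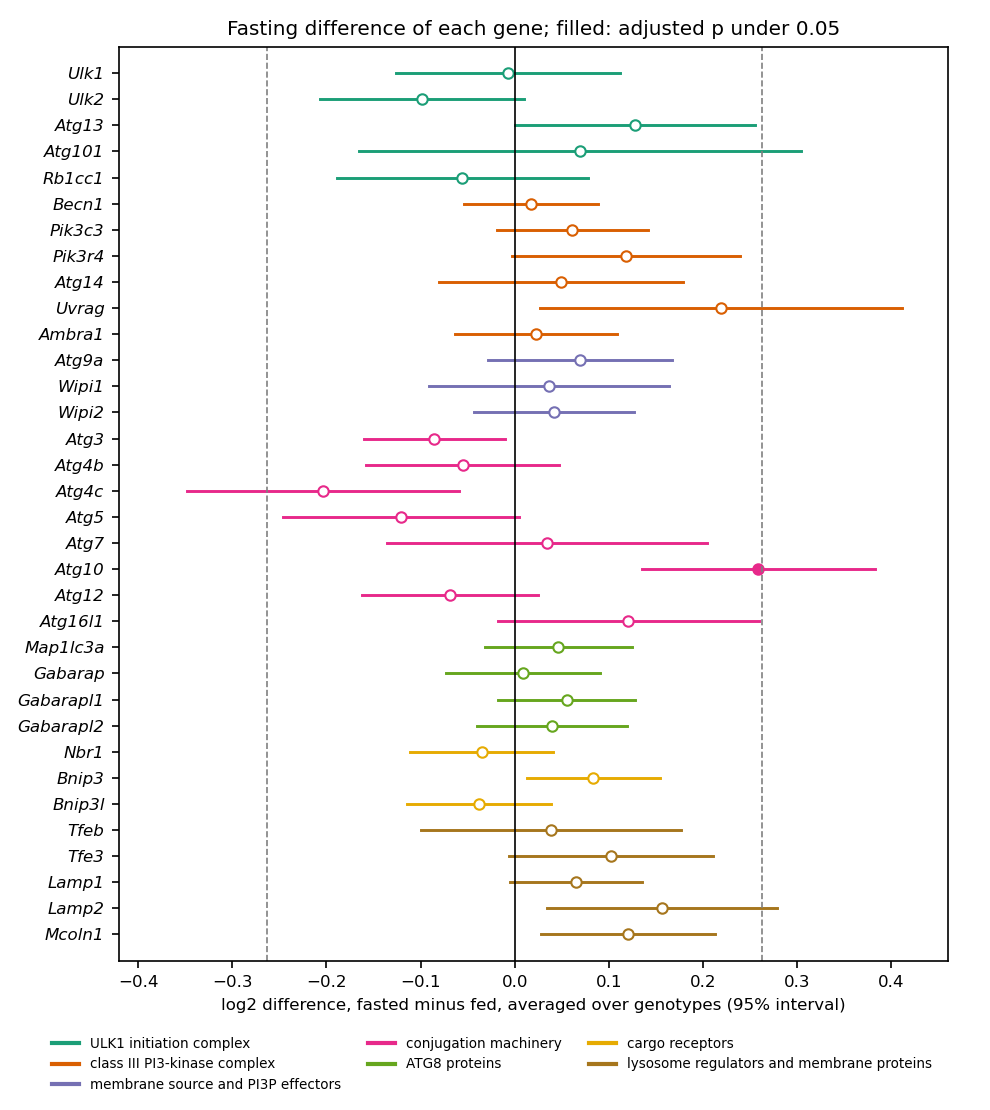
Averaged fasting difference of each of the 34 genes, in log2 units on the x axis with its 95% interval, coloured by role; the filled point has an adjusted p under 0.05 and the dashed lines mark a fold of 1.2 in either direction. Atg10 is the filled point, at 0.26, and 29 intervals lie between the dashed lines.

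The initiation genes showed no common direction in the fit without the number series. Ulk1, the kinase itself, averaged 8.89 ± 0.07 in knockout fasted arrays (SD, n = 3), 8.88 ± 0.13 in knockout fed arrays (n = 4), 8.85 ± 0.09 in control fasted arrays (n = 3) and 8.88 ± 0.10 in control fed arrays (n = 4). Its fasting difference was -0.01, with a 95% interval of -0.13 to 0.11. The related kinase Ulk2 had a difference of -0.10 ± 0.05 (adjusted p 0.239), and Atg13, the regulatory subunit that TORC1 phosphorylates, had 0.13 ± 0.06 (adjusted p 0.193). Atg101, the partner of ATG13, varied more than any other member, with an SD within groups of 0.22. Its difference of 0.07 has an interval of -0.17 to 0.30. In the fit that also held the number series, Atg13 was at 0.39 ± 0.10 (adjusted p 0.167 in limma), the smallest p of any member there. In the same fit Atg101 was at 0.38, Ulk1 at 0.18, Rb1cc1 at 0.02 and Ulk2 at 0.01. Rb1cc1 (FIP200), the scaffold of the complex, lay between 3.57 and 4.02, close to the median of 3.64 of 23 probe sets without a target, so its values say little about its RNA.

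All 6 genes of the class III phosphatidylinositol 3-kinase complex had a positive averaged fasting difference, with a median of 0.06. Of all 17097 genes, 8684 were positive. In limma's test 0 of 6 passed, and 1 of 6 had an unadjusted p under 0.05, against 26.0% of all genes. In the fit that also held the number series Ambra1 was at -0.01. Uvrag, which joins the complex in place of ATG14, had log2 values of 8.59, 8.86 and 8.25 in knockout fasted arrays, 8.17, 8.31, 8.31 and 8.28 in knockout fed arrays, 8.38, 8.37 and 8.79 in control fasted arrays, and 8.36, 8.30, 8.39 and 8.45 in control fed arrays. Only knockout fasted replicates 1 and 2 and control fasted replicate 3 stood above every fed array; the other fasted arrays lay among them. The difference of Uvrag was 0.22 ± 0.09 (adjusted p 0.139). Pik3r4, the regulatory subunit, had a difference of 0.12 (adjusted p 0.201) and Pik3c3, the catalytic subunit VPS34, one of 0.06. Becn1, the scaffold subunit, lay between 10.51 and 10.66 over all 14 arrays, and its interval of -0.05 to 0.09 is narrow. Atg14 had a difference of 0.05 and Ambra1, which binds Becn1, one of 0.02. Downstream of this complex, Atg9a, which supplies membrane, had a difference of 0.07, and Wipi1 and Wipi2, which read the lipid it makes, had 0.04 each.

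The 4 ATG8 genes measured varied little. Map1lc3a (an LC3 protein) had a fasting difference of 0.05, Gabarap 0.01, Gabarapl1 0.06 and Gabarapl2 0.04, and their intervals lay between -0.07 and 0.13. Gabarapl1 lay between 12.10 and 12.26 in fasted arrays and between 12.07 and 12.17 in fed ones, and these ranges overlap. Among cargo receptors, Nbr1, which binds ubiquitin, had -0.04, and the mitochondrial receptors Bnip3 and Bnip3l (NIX) had 0.08 and -0.04. Bnip3 had log2 values of 10.94, 10.90 and 10.80 in knockout fasted arrays, 10.79, 10.83, 10.78 and 10.81 in knockout fed arrays, 10.90, 10.94 and 10.91 in control fasted arrays, and 10.85, 10.82, 10.80 and 10.84 in control fed arrays. Of the 6 fasted arrays, only knockout fasted replicate 3 lay among the fed ones, and the adjusted p of its averaged difference, 0.08 ± 0.03, was 0.125.

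The 5 lysosome regulators and membrane proteins all had positive averaged fasting differences, with a median of 0.10, as did 8684 of all 17097 genes. In limma's test 0 of 5 passed, and 2 of 5 had an unadjusted p under 0.05, against 26.0% of all genes. Mcoln1, the lysosomal calcium channel TRPML1, had log2 values of 8.71, 8.77 and 8.56 in knockout fasted arrays, 8.58, 8.43, 8.50 and 8.46 in knockout fed arrays, 8.62, 8.71 and 8.66 in control fasted arrays, and 8.57, 8.67, 8.56 and 8.64 in control fed arrays. Fasted and fed arrays overlapped in both genotypes, and the difference was 0.12 ± 0.04 (adjusted p 0.0932). Lamp2, a lysosomal membrane glycoprotein needed for fusion with autophagosomes, had 9.92, 9.91 and 9.96 in knockout fasted arrays, 9.70, 9.74, 9.75 and 10.02 in knockout fed arrays, 9.85, 9.84 and 9.69 in control fasted arrays, and 9.65, 9.57, 9.72 and 9.49 in control fed arrays. Knockout fed replicate 4, an array with high cortex and hippocampus markers, was the highest of all. The difference of Lamp2 was 0.16 ± 0.06 (adjusted p 0.0981), and without knockout fed replicate 4 it was 0.19 with an adjusted p of 0.0228. That was the largest of the differences found by leaving out each array in turn, which ran from 0.14 to 0.19. Lamp2 passed in 3 of 21 alternatives. Lamp1, the related glycoprotein, had a difference of 0.07 (adjusted p 0.226), Tfe3 0.10 (adjusted p 0.218) and Tfeb 0.04 (adjusted p 0.756). In the fit that also held the number series, Tfeb stood at -0.25, Mcoln1 at 0.02 and Lamp2 at 0.28, and the adjusted p was 0.427 for Tfeb and Lamp2 and 0.970 for Mcoln1.

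**Figure D3:**
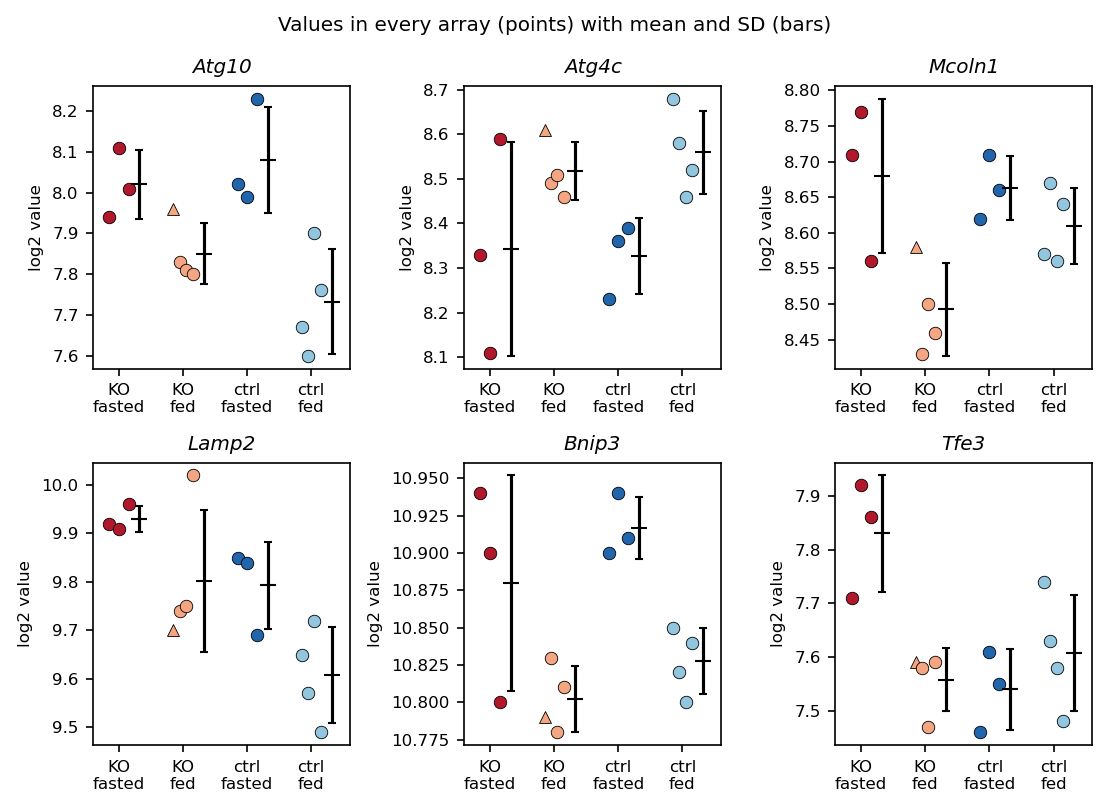
Log2 values (y axis, a separate scale in each panel) of Atg10, Atg4c, Mcoln1, Lamp2, Bnip3 and Tfe3 in every array, by group (x axis), with the mean and SD of each group as bars. KO is knockout and ctrl control; the triangle is knockout fed replicate 1, the fed array with a low sample number, which lies at 7.96 in Atg10, among the fasted arrays.

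The E-box CACGTG lies at the core of the site through which TFEB and TFE3 act on lysosomal genes. Promoter windows of 300 bases (250 before the start and 50 after it) from RefSeq for GRCm38.p6 were found for 27 of the 34 measured members, 32 windows in all. CACGTG, which reads the same on both strands, was in 7 of the 32 windows (21.9%), against 7.15% of all 32851 windows. TCACGTG or its reverse CACGTGA, which contain it, was in 5 of 32 (15.6%), against 3.77%. GTAAACA or its reverse TGTTTAC, a FOXO site, was in 0 of 32, against 3.65%. A match describes these letters and not binding. Stretches of 4 genes are shown, with CACGTG in capitals: Lamp1 because it holds the motif 4 times, Mcoln1 and Bnip3 because they were among the 5 members with the smallest p for fasting, and Atg3 as a gene with the motif whose fasting difference was negative. They lie at chr8:13159080-13159160 (plus strand), chr8:3500428-3500499 (plus strand), chr7:138909589-138909634 (minus strand) and chr16:45158715-45158783 (plus strand), in that order.
Lamp1: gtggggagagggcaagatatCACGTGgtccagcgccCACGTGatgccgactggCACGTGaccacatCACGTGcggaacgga
Mcoln1: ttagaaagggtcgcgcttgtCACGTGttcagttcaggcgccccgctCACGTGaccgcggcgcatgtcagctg
Bnip3: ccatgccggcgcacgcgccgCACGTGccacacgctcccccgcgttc
Atg3: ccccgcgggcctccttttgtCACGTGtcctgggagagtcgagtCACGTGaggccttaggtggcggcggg
None of these 4 genes passed the test for fasting, and their averaged differences were 0.07, 0.12, 0.08 and -0.09.

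Within the genotypes, fasting changed 0 of 34 members in knockout mice and 1 of 34 in control mice, against 0.696% and 2.76% of all genes (limma, adjusted p under 0.05). In knockout mice 0.468% of all genes rose and 0.228% fell, and in control mice 1.64% rose and 1.12% fell. At an unadjusted p under 0.05 the counts were 3 of 34 in knockout mice and 4 of 34 in control mice, against 16.5% and 17.5%. The member that passed in control mice was Atg10, with a difference of 0.35 ± 0.08 (adjusted p 0.0383), against 0.17 ± 0.08 in knockout mice (adjusted p 0.318). The interaction, the response to fasting in knockout mice less the one in controls, was -0.18 ± 0.12 for Atg10 (adjusted p 1.00), so a difference between the genotypes was not shown. Fitted with the control arrays alone, Atg10 had an adjusted p of 0.102, and leaving out any 1 of control fasted replicates 1, 2 or 3, control fed replicates 1, 2 or 4, or knockout fed replicates 2 or 3 also ended the call, with adjusted p-values of 0.0519 to 0.164. The call was also lost in the fit that held the number series, where Atg10 was at 0.20 in control mice (adjusted p 0.748). In control mice all fasted arrays have low numbers and all fed arrays high ones. The series effect therefore came only from the knockout fed arrays, 1 of them low, and was taken as equal in controls. The call was lost as well without the 2 arrays with high cortex and hippocampus markers, where Atg10 was at 0.33 (adjusted p 0.103).

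For some members the fasted and fed arrays of 1 genotype did not overlap. In knockout mice, all fasted arrays lay above all fed ones for Gabarapl1, Tfe3 and Lamp1, which is 8.82% of the members, against 13.0% of all genes. In control mice they lay above for Atg10, Bnip3, Pik3c3, Pik3r4 and Wipi2 and below for Atg3, Atg4c, Atg5 and Bnip3l, which is 26.5%, against 16.5% of all genes. For Atg5 the probe set used differed by -0.16 in control mice, while its dimmer ones, with means of 7.58 and 7.38, each differed by 0.02.

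Tfe3 had the smallest p of any member for fasting in knockout mice. Its log2 values were 7.71, 7.92 and 7.86 in knockout fasted arrays, 7.59, 7.58, 7.47 and 7.59 in knockout fed arrays, 7.46, 7.61 and 7.55 in control fasted arrays, and 7.74, 7.63, 7.58 and 7.48 in control fed arrays. The 3 knockout fasted arrays stood above every other array except control fed replicate 1, whose 7.74 lay above the lowest of them. The fasting difference was 0.27 ± 0.07 in knockout mice (adjusted p 0.0994) and -0.07 ± 0.07 in control mice (adjusted p 0.677). The interaction of Tfe3 was 0.34 ± 0.10, with an unadjusted p of 0.00477 and an adjusted p of 1.00 in limma, and so did not pass the test over all genes. Mcoln1, at 0.19 ± 0.06 (adjusted p 0.153), and Uvrag, at 0.30 ± 0.13 (adjusted p 0.259), had the next smallest p for fasting in knockout mice. The difference of Uvrag was 0.15 without knockout fasted replicate 2 and 0.46 without knockout fasted replicate 3. In control mice the same difference was 0.05 ± 0.06 for Mcoln1 and 0.14 ± 0.13 for Uvrag.

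**Figure D4:**
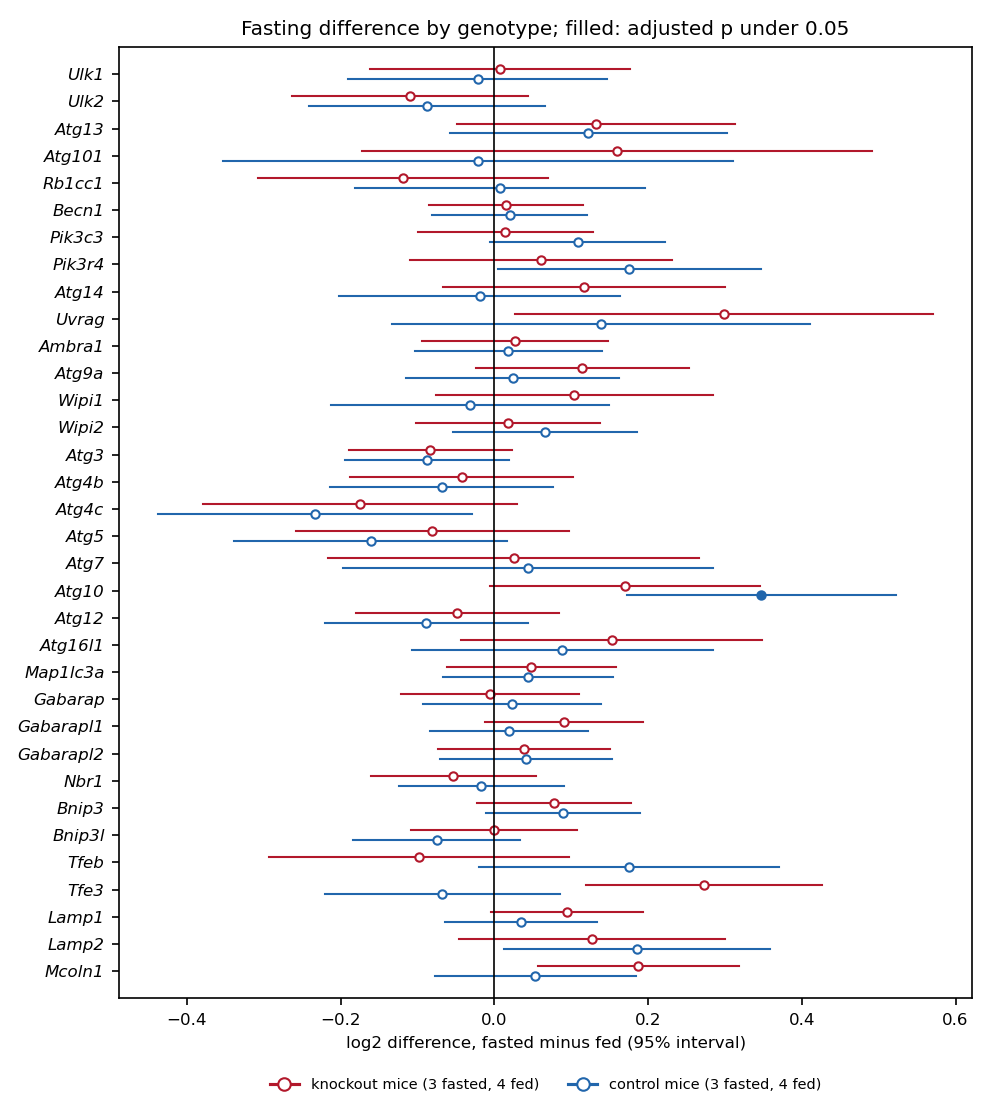
Fasting difference of each of the 34 genes in log2 units (x axis) with its 95% interval, in knockout mice (red, drawn above) and control mice (blue), each from 3 fasted and 4 fed arrays; filled points have an adjusted p under 0.05. The intervals of the 2 genotypes overlap for every gene except Tfe3, and Atg10 in control mice is the filled point.

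No member passed the test for the genotype difference, in either feeding state or averaged. Averaged over feeding states, 0 of 34 passed in limma, against 0.00585% of all genes, and 2 of 34 (5.88%) had an unadjusted p under 0.05, against 4.65%. In 0 of 34 did all 7 knockout arrays lie apart from all 7 control arrays, against 0.0585% of all genes. The median difference of the members, knockout minus control, was -0.02, against 0.00 for all genes, and the 95% interval lay within a fold of 1.2 for 31 of 34 members (91.2%), against 80.4%. The smallest p-values were those of Lamp2, at 0.17 ± 0.06, Tfe3, at 0.12 ± 0.05, and Atg7, at 0.17 ± 0.08, each with an adjusted p of 1.00. Without the 2 arrays with high cortex and hippocampus markers, Lamp2 stood at 0.14.

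In fasted mice, 0 of 34 members passed for knockout against control, as did 0% of all genes, and 1 of 34 had an unadjusted p under 0.05, against 3.87%. That member was Tfe3, at 0.29 ± 0.08, followed by Tfeb, at -0.18 ± 0.10, and Atg9a, at 0.12 ± 0.07, all with an adjusted p of 1.00. Tfeb was at -0.11 without control fasted replicate 3, and Atg9a at 0.06 without knockout fasted replicate 2. All knockout fasted arrays lay above all control fasted ones for Tfe3, Lamp2 and Ambra1 and below for Pik3c3, which is 11.8% of the members, against 7.64% of all genes. The mean of 5 choroid plexus markers also separated these groups, at 8.81 to 8.92 in knockout fasted arrays, 6.69 to 9.39 in knockout fed arrays, 6.58 to 7.99 in control fasted arrays and 6.49 to 8.65 in control fed arrays, and its part in the genotype values was not tested. In fed mice, 0 of 34 passed, against 0.00585%, and 1 of 34 had an unadjusted p under 0.05, against 4.62%. Knockout fed and control fed arrays overlapped in all 34 members, and lay apart in 2.46% of all genes. The smallest p-values in fed mice were those of Lamp2, at 0.20 ± 0.07 (0.14 without the 2 arrays with high cortex and hippocampus markers), Mcoln1, at -0.12 ± 0.06, and Atg7, at 0.18 ± 0.10, with adjusted p-values of 1.00. Lamp2 was at 0.12 without knockout fed replicate 4, and Atg7 at 0.09 without knockout fed replicate 2.

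The interaction passed for 0 of 34 members, as for 0% of all genes, and 1 of 34, Tfe3, had an unadjusted p under 0.05, against 3.83%. Tfeb, which is closely related to Tfe3, had an interaction of the other sign, -0.27 ± 0.13 (adjusted p 1.00). Its values were 4.97, 4.93 and 4.91 in knockout fasted arrays, 5.28, 4.93, 5.06 and 4.87 in knockout fed arrays, 4.97, 5.13 and 5.26 in control fasted arrays, and 4.91, 4.98, 5.0 and 4.89 in control fed arrays. All 4 groups of Tfeb overlapped, and 2 arrays of different groups, knockout fed replicate 1 and control fasted replicate 3, were the highest. The interval of the interaction lay within a fold of 1.2 for 16 of 34 members (47.1%), against 22.6% of all genes.

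Where a gene had several probe sets, these did not always give the same result. Of the 34 members, 18 had more than 1 probe set, and 10 had probe sets of both signs for the averaged fasting difference: Ulk1, Ulk2, Becn1, Wipi1, Wipi2, Atg4b, Atg7, Atg12, Bnip3l and Mcoln1. For Mcoln1, Atg12 and Atg7 only the dimmest probe set had the other sign. Its mean was 4.46, 4.02 and 4.05, in that order, close to the background level of 3.64. For Ulk1 and Atg4b the dimmer of 2 probe sets had the other sign, at means of 6.07 and 7.19, above that level. For the rest, probe sets well above the background level also differed in sign. With every probe set tested on its own, 5 of the 68 passed, 4 higher and 1 lower, against 8.65% of all 28898 probe sets that name 1 gene. Besides that of Atg10, these were a second probe set of Atg13 (0.23 ± 0.05, adjusted p 0.00999), a dimmer one of Gabarapl1 (0.14 ± 0.04, adjusted p 0.0464), the third of Lamp2 (0.26 ± 0.07, adjusted p 0.0291) and the third of Ulk2 (-0.20 ± 0.05, adjusted p 0.0158). The brighter probe sets used for these 4 genes had the same sign and did not pass. For Ulk2 the second probe set had the opposite sign, at 0.04, and for Lamp2 the second had 0.03. Which transcripts each probe set reads was not analysed here.

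Genes of 5 related lists add the rest of the pathway to the fasting comparison, with 10.0% of all genes called as before. Among 26 other autophagy genes measured, 5 rose and 0 fell with fasting averaged over genotypes (19.2%). Sh3glb1 (endophilin B1), which curves membranes and binds the class III kinase complex through Uvrag, had log2 values of 5.68, 5.95 and 5.28 in knockout fasted arrays, 5.23, 5.29, 4.83 and 5.15 in knockout fed arrays, 5.5, 5.55 and 5.72 in control fasted arrays, and 5.01, 4.86, 4.95 and 5.18 in control fed arrays. Among the fasted arrays, knockout fasted replicate 3 alone lay below the highest fed array, and Sh3glb1 rose by 0.55 ± 0.10 (adjusted p 0.00524). Trp53inp1, a p53-induced protein that binds ATG8 proteins, rose by 0.67 ± 0.18 (adjusted p 0.0313), with 9.65 in knockout fasted replicate 2 and 8.17 to 9.17 in the other fasted arrays, against 8.03 to 8.25 in fed arrays. Knockout fasted replicate 1, the lowest, lay among the fed arrays. Trp53inp1 was at 0.44 without knockout fasted replicate 2 and passed in 13 of 21 alternatives. Wdr45 (WIPI4) rose by 0.28 ± 0.06, Stx17, the autophagosomal SNARE for lysosome fusion, by 0.23 ± 0.07, and Vmp1, a membrane protein of the endoplasmic reticulum, by 0.17 ± 0.04. Over the same alternatives, Sh3glb1 and Wdr45 passed in 20, Vmp1 in 13 and Stx17 in 8. The median of this list was 0.03.

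Lysosomal genes moved in both directions. Of 31 hydrolases and their activators, 4 rose and 2 fell (19.4%): the cathepsins Ctsf, Ctsl and Ctsa and the nuclease Dnase2a rose by 0.34 ± 0.06, 0.14 ± 0.04, 0.16 ± 0.05 and 0.25 ± 0.05, in that order. Hexa, a subunit of beta-hexosaminidase, fell by 0.18 ± 0.04, and Lipa, the acid lipase, fell by 0.31 ± 0.09. The calls of Ctsa and Lipa were close to the threshold, with adjusted p-values of 0.0432 and 0.0419 in limma. Over 21 alternatives, Dnase2a and Hexa passed in 20, Ctsf in 19, Ctsl in 10, Ctsa in 7 and Lipa in 5. Averaged over its 2 probe sets, Ctsf had a difference of 0.09 and did not pass (adjusted p 0.281). The second of these is dim, with a mean of 4.24 against 9.35 for the one used. Of 14 subunits of the V-ATPase, the proton pump that acidifies lysosomes, 1 rose (7.14%): Atp6v0e had 9.35, 9.70 and 9.33 in knockout fasted arrays, 9.11, 9.20, 9.27 and 9.26 in knockout fed arrays, 9.46, 9.61 and 9.77 in control fasted arrays, and 9.12, 9.14, 9.04 and 9.03 in control fed arrays. All fasted arrays of Atp6v0e stood above all fed ones, and it rose by 0.39 ± 0.07 (adjusted p 0.00316).

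Of 17 other lysosomal membrane proteins, 1 rose and 3 fell (23.5%). Slc17a5, the sialic acid transporter, rose by 0.20 ± 0.05, while Mfsd8, a membrane transporter, fell by 0.32 ± 0.09, Laptm5 fell by 0.26 ± 0.07 and Cd68 fell by 0.26 ± 0.08. The adjusted p of Cd68 in limma was 0.0498. Over 21 alternatives, Slc17a5 passed in 19, Laptm5 in 9, Mfsd8 in 8 and Cd68 in 5. Laptm5 and Cd68 are known from immune cells, and Cd68 marks microglia and macrophages. In the same comparison 5 of 10 microglial markers fell (Aif1, Cx3cr1, P2ry12, Trem2 and Tyrobp) and 0 rose. The mean over the 10 was 6.86 to 7.17 in knockout fasted arrays, 7.19 to 7.31 in knockout fed arrays, 6.83 to 7.02 in control fasted arrays and 7.34 to 7.42 in control fed arrays, with the dimmest, Itgam, at a mean of 4.69. Of 9 astrocyte markers, 4 rose and 1 fell, and of 9 oligodendrocyte markers 2 rose and 2 fell; of 8 neuronal markers 0 passed in limma, and 0 had an unadjusted p under 0.05. The part of these cell types in the lysosomal and autophagy results was not tested.

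Genes through which nutrients control autophagy also split. Of 22 measured, 2 rose and 2 fell (18.2%): Foxo3, a transcription factor that insulin signalling holds back, rose by 0.23 ± 0.05, and Lamtor1, which anchors the Ragulator complex at the lysosome, rose by 0.13 ± 0.04. Rragd, a Rag GTPase, fell by 0.17 ± 0.05, and Prkaa2, a catalytic subunit of AMPK, fell by 0.17 ± 0.05. These values rest on the brightest probe set of each gene. The next brightest had the same sign but did not pass when tested on its own. Its difference was 0.11 for Foxo3, 0.04 for Lamtor1, -0.03 for Rragd and -0.05 for Prkaa2. The adjusted p-values in limma were 0.17, 0.69, 0.91 and 0.51, in that order. For Foxo3, Lamtor1 and Prkaa2 this probe set lay well above the background level of 3.64. The medians of the hydrolases, the pump subunits, the membrane proteins and the nutrient genes were 0.03, 0.03, 0.00 and 0.00. In a fit that also held the number series, 0 genes passed in any of these 5 lists, against 0.0877% of all genes. The sizes of the called genes moved both ways in that fit: Atp6v0e was at 0.51, Dnase2a and Ctsf at 0.33 each, Slc17a5 at 0.22 and Prkaa2 at -0.32, while Ctsa was at 0.02 and Laptm5 at -0.03. Leaving out each array in turn gave 2 to 5 calls among the other autophagy genes (2 without knockout fed replicate 2 or 3), 3 to 8 among the hydrolases (8 without knockout fasted replicate 3), 1 among the pump subunits, 0 to 5 among the membrane proteins (0 without knockout fasted replicate 2) and 1 to 4 among the nutrient genes. Without the 2 arrays with high cortex and hippocampus markers the counts were 4, 5, 1, 1 and 3, in the same order. For knockout against control averaged over feeding states, 0 genes of the 5 lists passed in limma, against 0.00585% of all genes. An unadjusted p under 0.05 was found for 1 of 14 pump subunits (7.14%) and for 0 genes in each of the other lists, against 4.65% of all genes.

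**Figure D5:**
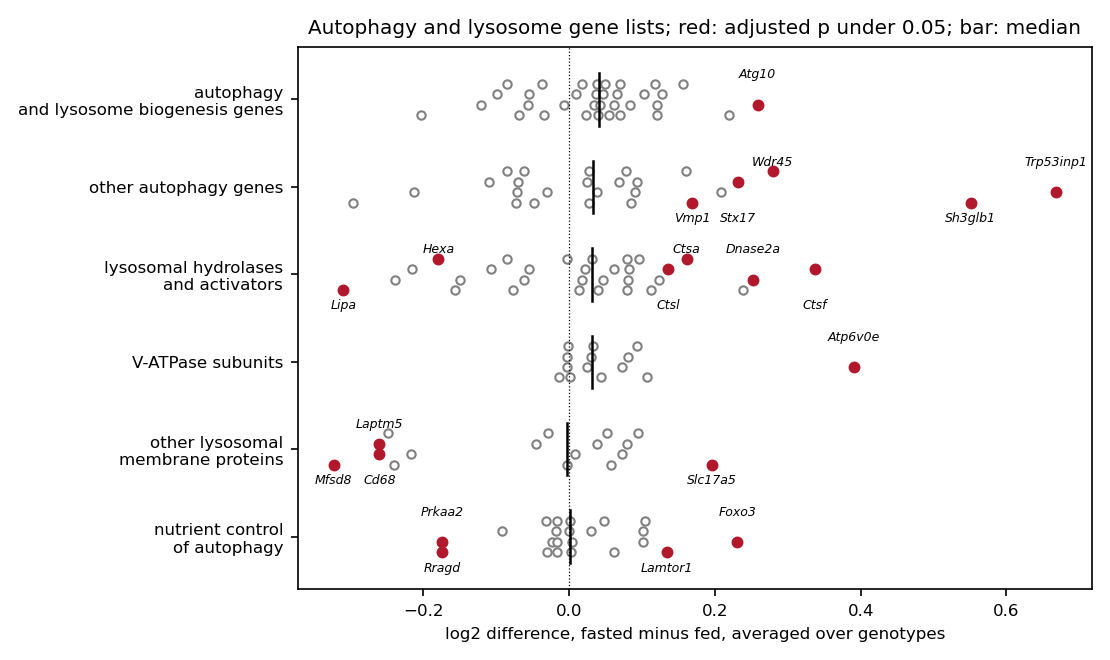
Averaged fasting difference in log2 units (x axis) of each measured gene in the 34 autophagy and lysosome biogenesis genes (top) and in 5 lists of related genes; filled red points have an adjusted p under 0.05 and are named, and the bar is the median of the list. Sh3glb1 and Trp53inp1 lie farthest to the right, at 0.55 and 0.67, and the medians lie between 0.00 and 0.04.

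Knockout fed replicate 1 allows a limited look within one number series. The fasted knockout mean minus that single fed array had a median of 0.07 over the 34 members, and minus the other 3 knockout fed arrays a median of 0.03, with the same sign in both for 25 of 34. For Tfe3 these differences were 0.24 and 0.28, and for Uvrag 0.40 and 0.27. For Atg10 they were 0.06 and 0.21, and for Mcoln1 0.10 and 0.22. With 1 fed array there is no test.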

How the data were processed

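The assay was the Affymetrix HT MG-430 PM array, run on hypothalamic RNA of 14 samples. Per the submitters' processing notes, the authors used RMA and affy (no version given) to make the deposited log2 values. RMA removes background, gives the arrays a common distribution and combines the probes of a set, which compresses differences of dim probe sets. No further normalisation was applied, and 0 columns were left out. Of 45141 probe sets, 28898 named 1 gene, 551 several and 15692 none in the platform annotation. For each of 17097 genes, the probe set of highest mean was used. Of the gene IDs, 99.3% matched RefSeq (GRCm38.p6), used for names and promoters.

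Groups came from the sample titles. One coefficient per group was fitted with limma 3.58.1 in R 4.3.3 (lmFit, contrasts, eBayes), with 10 residual and 3.27 prior degrees of freedom, two-sided, for 7 contrasts. P-values were adjusted over all genes by Benjamini-Hochberg, with a threshold of 0.05. Errors of differences are standard errors. The fit was tested on simulated data.

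Members and lists were chosen with earlier results of these data known. Values in every array are given for members past the threshold, or for the 5 with the smallest p in the averaged fasting contrast; where no member passed, the 3 with the smallest p are named, and of other lists up to 6 genes past the threshold. Members named beyond this were chosen after their values were seen. Alternatives covered a filter on low values, probe set means, a trended and robust prior, median centring, the groups compared alone, number series and RNA quality (Actb 3' minus 5', 0.77 to 0.94) as covariates, and leaving out arrays.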

Additional observations from a re-analysis of the deposited data

Results flagged for a closer look

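An array was marked where it stood apart from the others of its group by more than Dixon's 95% critical value, in the 68 groups of 4 arrays (34 genes in knockout fed and in control fed mice). There were 4 such arrays, and chance marks about 1 in 20 groups. Rb1cc1 was 4.02 in knockout fed replicate 3 and 3.72 to 3.76 in the rest of that group, all near the background level. Tfe3 was 7.47 in the same array, against 7.58 to 7.59. Lamp2 was 10.02 in knockout fed replicate 4, against 9.70 to 9.75. Atg7 was 6.62 in control fed replicate 2, against 6.38 to 6.42.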

How the results depend on the processing

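For fasting averaged over genotypes, the count of 1 member became 2 without the 40% of genes with the lowest mean, 2 with all probe sets of a gene averaged, 4 with a trended and robust prior, 0 with the number series as a covariate, and 2 without both arrays with high cortex and hippocampus markers. It ranged from 1 to 5 over leaving out each array, being 5 where knockout fasted replicate 3 was left out and 2 where knockout fed replicate 4 was. Atg10 passed in 20 of these 21 alternatives. For fasting in control mice, the count of 1 became 0 with only the groups compared, 0 with the number series as a covariate and 0 without both arrays with high cortex and hippocampus markers, and ranged from 0 to 1 over leaving out each array; Atg10 passed in 11 of 22. The cause was not tested. In control mice number series and fasting coincide, so the series effect used there came from the knockout fed arrays. The other 5 contrasts gave 0 members under every alternative run. With the number series, 8 of 34 members had the opposite sign of averaged fasting difference, Tfeb at -0.25 and Wipi1 at -0.18 among them. Centring arrays on their median moved the members' averaged fasting median to 0.06. No paired analysis was possible because the groups share no replicate numbers: every sample title has a number of its own.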
